A study of Mus musculus with 6 samples.

Results

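Smooth muscle cells and pericytes, together called mural cells, wrap the blood vessels of adipose tissue. The genes described here are 10 genes used to recognise them, chosen by symbol from the 47729 genes in each deposited table: Acta2, Actg2, Tagln, Myh11, Cnn1, Lmod1, Smtn, Mylk, Notch3 and Rgs5. All 10 were found in the table of every mouse, and all 10 passed the filter on low counts. Total RNA was sequenced from the right interscapular brown adipose tissue (BAT) of 6 male wild-type C57BL/6J mice. From 6 to 10 weeks of age, 3 of them ate a high-fat diet with 45% of energy from fat (HFD) and 3 ate a standard rodent diet (LFD). The mice were housed singly, and those sequenced were picked from each diet to span the range of fat mass, so the spread within a diet includes that choice. Whether diet altered the RNA content of BAT was the question of the design, and these genes bear on its vessel wall.

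Contraction of smooth muscle begins when calcium and calmodulin switch on myosin light chain kinase (Mylk), which phosphorylates the light chain of smooth muscle myosin (heavy chain Myh11) so that it pulls on actin filaments (Acta2, Actg2). Proteins of the filament such as transgelin (Tagln), calponin (Cnn1), smoothelin (Smtn) and leiomodin (Lmod1) bind actin. Many of these genes are switched on by serum response factor (SRF) with its partner myocardin through a DNA element called the CArG box. Notch3 is the Notch receptor of mural cells, and Rgs5 is a regulator of G protein signalling that marks pericytes.

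The libraries held between 17156991 and 21603487 counts assigned to genes. The 10 genes together took 0.0315% to 0.0706% of them, so that the counts of the less abundant genes were small. Transcripts of the mitochondrial genome took 8.50% to 22.7% of counts in the HFD mice and 3.87% to 13.8% in the LFD mice. Genes of skeletal muscle separated the diets in these libraries. Of 14 skeletal muscle markers, 13 were below every LFD mouse in every HFD mouse (DESeq2 called 13 of the 14, edgeR 0), and their summed level ran from 14.4 to 337 TPM, which are transcripts scaled for length to a fixed total, in HFD and from 1870 to 12788 in LFD. Myoglobin (Mb), the remaining marker, overlapped between the diets. On scaled counts, 9.23% of all genes tested lay below every LFD mouse in every HFD mouse. Ucp1, the uncoupling protein that defines brown adipocytes, was measured in all 6 mice, at 796 to 4021 TPM in HFD and 11 to 443 TPM in LFD. It belongs to a list of 10 brown adipocyte markers whose summed level overlapped between the diets. That sum was 5555 to 11912 TPM in HFD and 3437 to 11966 TPM in LFD. In edgeR, 7 of the 10 were estimated higher in HFD and 3 lower, and 0 were called. Because the tissue was sequenced in bulk, fewer cells of a type and less RNA per cell cannot be told apart.

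Several of the 10 genes have close relatives in striated muscle or in all cells, so the sequences that keep the actins apart are shown first. The lines give the 75 coding bases before the stop codon, the length of a sequencing read, for the 6 actins (annotation GENCODE M21, build GRCm38, minus strand in each case). Capitals mark bases that are not those of Acta2 at the same position. The stretches lie at chr19:34241670-34241744 (Acta2), chr6:83512988-83513062 (Actg2), chr8:123892012-123892086 (Acta1), chr2:114047469-114047543 (Actc1), chr5:142903801-142903875 (Actb) and chr11:120346393-120346467 (Actg1), each within a single coding exon.
Acta2: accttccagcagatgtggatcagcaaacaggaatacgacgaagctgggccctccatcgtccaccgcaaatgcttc
Actg2: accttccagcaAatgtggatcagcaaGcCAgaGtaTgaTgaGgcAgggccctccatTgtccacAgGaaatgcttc
Acta1: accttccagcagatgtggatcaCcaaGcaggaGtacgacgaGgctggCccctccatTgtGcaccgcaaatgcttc
Actc1: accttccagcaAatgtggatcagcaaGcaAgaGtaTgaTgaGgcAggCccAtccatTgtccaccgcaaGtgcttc
Actb: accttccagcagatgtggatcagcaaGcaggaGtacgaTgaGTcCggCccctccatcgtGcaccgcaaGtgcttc
Actg1: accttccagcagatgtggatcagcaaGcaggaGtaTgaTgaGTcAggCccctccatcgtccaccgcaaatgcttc

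Within these 75 bases the other actins differed from Acta2 at 7 (Acta1) to 12 (Actg2 and Actc1) positions. Over the whole coding sequence, identity to Acta2 was 84.4% for Actg2, 85.4% for Acta1, 82.5% for Actc1, 83.2% for Actb and 81.9% for Actg1. The longest run without a difference was 29 bases against Actg2 and Acta1 and 56 bases against Actg1, shorter than a read. No 75-base word in any annotated transcript of the 10 genes recurred in a transcript of another gene, whereas 33.5% of the words of Actg1 did, many of them in its pseudogenes. The uncertainty of the count estimate was correspondingly small in the deposited tables: the largest posterior standard deviation of a count, over the 10 genes and 6 mice, was 3.69 counts, for Notch3.

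The promoter table (RefSeq, GRCm38.p6; 250 bases before to 50 after each gene start) held 7 of the 10 genes: Acta2, Cnn1, Lmod1, Smtn, Mylk, Notch3 and Rgs5. The search was for the CArG box, CC and GG around 6 bases that are all A or T, a pattern that reads the same on both strands. An exact box occurred in none of the 7 windows and in 1.63% of the 32851 promoters of the table. The window of Mylk is placed at a start 39740 bases inside the GENCODE gene and that of Smtn at one 1320 bases inside. Neither window covers the GENCODE gene start, so sequence there was not searched. With at most 1 other base among the 6, a box occurred only in the Acta2 window among the 7, and in 9.98% of all promoters. The windows of Acta2 (chr19:34255324-34255623, minus strand) and of its skeletal muscle relative Acta1 (chr8:123894726-123895025, minus strand) are printed because these genes carry the contrast described below, with every such box in capitals, and positions are counted from the RefSeq start.
Acta2: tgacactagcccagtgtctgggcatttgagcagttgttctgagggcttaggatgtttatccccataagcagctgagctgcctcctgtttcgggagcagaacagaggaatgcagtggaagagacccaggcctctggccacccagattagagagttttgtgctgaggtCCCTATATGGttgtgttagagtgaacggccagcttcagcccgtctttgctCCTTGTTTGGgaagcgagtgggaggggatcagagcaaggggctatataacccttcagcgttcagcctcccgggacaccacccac
Acta1: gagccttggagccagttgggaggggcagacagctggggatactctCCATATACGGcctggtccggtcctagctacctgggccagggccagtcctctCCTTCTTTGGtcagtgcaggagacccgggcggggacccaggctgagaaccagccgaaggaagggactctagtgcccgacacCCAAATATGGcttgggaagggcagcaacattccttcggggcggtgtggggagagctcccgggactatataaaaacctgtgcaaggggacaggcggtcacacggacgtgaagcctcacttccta
The boxes of Acta2 began 84 and 34 bases before the RefSeq start, which lies 217 bases inside the GENCODE gene given below, and each had 1 base other than A or T. Acta1 had an exact box 73 bases before its start and boxes with 1 other base at 205 and 154 bases before it. A match to these letters is a description of the window and shows no binding.

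Acta2 (chr19:34241090-34255590), the smooth muscle alpha-actin, was the most abundant of the set by mean TPM. It stood at 35.4, 46.2 and 104.6 TPM in the 3 HFD mice and at 22.5, 33.3 and 135.1 TPM in the 3 LFD mice. In each diet 1 mouse, number 3, was far above the other two, and the diets overlapped. Mean TPM was 62.1 ± 37.2 in HFD and 63.6 ± 62.1 in LFD (SD, n = 3 each). The fitted log2 fold change of HFD over LFD, on counts scaled by TMM normalisation in edgeR, was 0.31 (SE 0.56, 95% interval -1.03 to 1.66), with an adjusted p of 0.920 in edgeR's quasi-likelihood test. Without LFD mouse 3 the log2 fold change was 1.14 (unadjusted p = 0.0242, adjusted p = 0.213, edgeR), and without HFD mouse 3 it was -0.08. It was 0.04 without LFD mouse 1 and 0.004 without LFD mouse 2. Its size therefore depended on several of the mice, and its sign turned only without HFD mouse 3. Pairing the mice by their number, which is not known to be part of the design, gave 0.48 (SE 0.23, unadjusted p = 0.0879, edgeR).

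Actg2 (chr6:83512905-83536265), the gamma-actin of visceral smooth muscle, was close to the limit of these libraries. It had 31, 72 and 33 counts in HFD and 13, 3 and 69 counts in LFD, which gave 1.21, 4.65 and 1.90 TPM against 0.72, 0.34 and 5.04 TPM. LFD mouse 3 held the highest level and LFD mouse 2 the lowest, so the HFD values fell inside the LFD range. The log2 fold change was 0.60 (SE 0.97, 95% interval -1.70 to 2.90, adjusted p = 0.909, edgeR), and without LFD mouse 3 it was 2.21 (unadjusted p = 0.0401, adjusted p = 0.264, edgeR). Without HFD mouse 2 it was 0.11, and without LFD mouse 2 it was 0.06.

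Tagln (chr9:45929619-45936058), which encodes transgelin, stood at 16.3, 29.5 and 44.7 TPM in HFD and at 16.1, 22 and 35.9 TPM in LFD. On the TMM scale, log2 CPM (counts scaled to a fixed library total) were 4.95, 5.10 and 5.65 in HFD and 4.79, 4.47 and 4.99 in LFD. The highest LFD mouse was just above the lowest HFD mouse, and this was the only crossing. HFD over LFD gave a log2 fold change of 0.50 (SE 0.27, 95% interval -0.13 to 1.14, adjusted p = 0.583, edgeR). It was 0.26 without HFD mouse 3 and 0.25 on the log2(TPM + 1) scale. Pairing the mice by their number gave 0.49 (SE 0.19, unadjusted p = 0.0510, adjusted p = 0.287, edgeR).

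Smtn (chr11:3517523-3540612), whose product smoothelin marks contractile smooth muscle, stood at 7.11, 15.8 and 18.9 TPM in HFD and at 6.76, 19.2 and 48.9 TPM in LFD. All 3 HFD mice fell within the LFD range, and LFD mouse 3 was above every other mouse. The log2 fold change was -0.42 (SE 0.46, 95% interval -1.53 to 0.68, adjusted p = 0.845, edgeR) with all mice and 0.26 without LFD mouse 3. Its effective length, the average usable length of its transcripts weighted by their abundance, ranged from 2201 to 2353 bases in HFD and from 2015 to 2437 bases in LFD, so the diets overlapped in transcript length.

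Lmod1 (chr1:135324807-135368065) encodes leiomodin 1, the actin nucleator of smooth muscle. It stood at 0.32, 0.97 and 0.98 TPM in HFD and at 1.24, 3.27 and 0.95 TPM in LFD, with 27 to 66 counts in the HFD mice and 44 to 176 in the LFD mice. LFD mouse 3 lay among the HFD mice while the other LFD mice were above all of them. The log2 fold change was -1.14 (SE 0.56, 95% interval -2.46 to 0.19, unadjusted p = 0.0819, adjusted p = 0.542, edgeR), the furthest from 0 of the 10. It was -0.65 without LFD mouse 2 (unadjusted p = 0.295, adjusted p = 0.830, edgeR) and -1.51 without LFD mouse 3 (unadjusted p = 0.0116, adjusted p = 0.160, edgeR).

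Cnn1 (chr9:22099216-22109630), basic calponin, was the least abundant of the 10. Its 13 to 35 counts per mouse gave 0.34, 0.95 and 0.58 TPM in HFD and 0.52, 0.41 and 0.99 TPM in LFD, with complete overlap. The log2 fold change was 0.15 (SE 0.48, 95% interval -0.99 to 1.28, adjusted p = 0.959, edgeR), and it was -0.17 without HFD mouse 2 and -0.14 without LFD mouse 2. The interval leaves both directions open, and the smallest difference detectable with this spread between mice was not computed.

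Myh11 (chr16:14194535-14291372), the smooth muscle myosin heavy chain, stood at 1.5, 6.17 and 3.01 TPM in HFD and at 6.35, 4.87 and 5.29 TPM in LFD. By TPM, HFD mouse 2 was inside the range of the LFD mice and the other HFD mice were below it. In log2 CPM, the values were 3.62, 4.96 and 3.88 in HFD and 5.56, 4.41 and 4.34 in LFD, where HFD mouse 2 lay above all LFD mice but number 1. HFD over LFD gave a log2 fold change of -0.61 (SE 0.49, 95% interval -1.77 to 0.55, adjusted p = 0.757, edgeR). It was -1.15 without HFD mouse 2 and -0.11 without LFD mouse 1.

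Mylk (chr16:34745210-35002420), the kinase that starts smooth muscle contraction, was the steadiest of the 10 by TPM, with a coefficient of variation over the 6 mice of 21.4%. It stood at 3.71, 6.63 and 7.33 TPM in HFD and at 6.88, 6.17 and 5.58 TPM in LFD, and the LFD values lay wholly inside the HFD range. The log2 fold change was 0.00 (SE 0.35, 95% interval -0.82 to 0.82, adjusted p = 1.000, edgeR). Without LFD mouse 1 it was 0.46 (SE 0.20, unadjusted p = 0.0597, adjusted p = 0.364, edgeR), and without LFD mouse 3 it was -0.24. The smallest difference detectable with this spread was not computed.

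Notch3 (chr17:32120820-32166852) stood at 3.04, 13.5 and 15.8 TPM in HFD and at 5.4, 7.42 and 10.2 TPM in LFD. HFD mouse 1 was below every LFD mouse and the other HFD mice were above every LFD mouse. In the fit its log2 fold change was 0.61 (SE 0.41, 95% interval -0.38 to 1.6, adjusted p = 0.701, edgeR). Without HFD mouse 1 it was 0.96 (unadjusted p = 0.00891, adjusted p = 0.382, edgeR), without HFD mouse 3 it was 0.32 (unadjusted p = 0.495, edgeR), and on the log2(TPM + 1) scale it was 0.24.

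Rgs5 (chr1:169655501-169695813), the pericyte regulator of G protein signalling, was the only one of the 10 whose diets did not overlap on the TMM scale. Its log2 CPM were 7.59, 8.32 and 7.75 in HFD and 7.41, 6.91 and 7.14 in LFD, a log2 fold change of 0.75 (SE 0.30, 95% interval 0.04 to 1.46, a fold of 1.68). The unadjusted p was 0.0405 and the adjusted p 0.454 (edgeR), so the difference did not pass. Per length, Rgs5 stood at 38.7, 104.4 and 72.5 TPM in HFD and at 37.4, 45.7 and 60.5 TPM in LFD, where HFD mouse 1 lay among the LFD mice. The estimate was above 0 with each mouse left out (0.50 to 0.89), and pairing the mice by their number gave 0.73 (unadjusted p = 0.0566, edgeR).

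**Figure D1:**
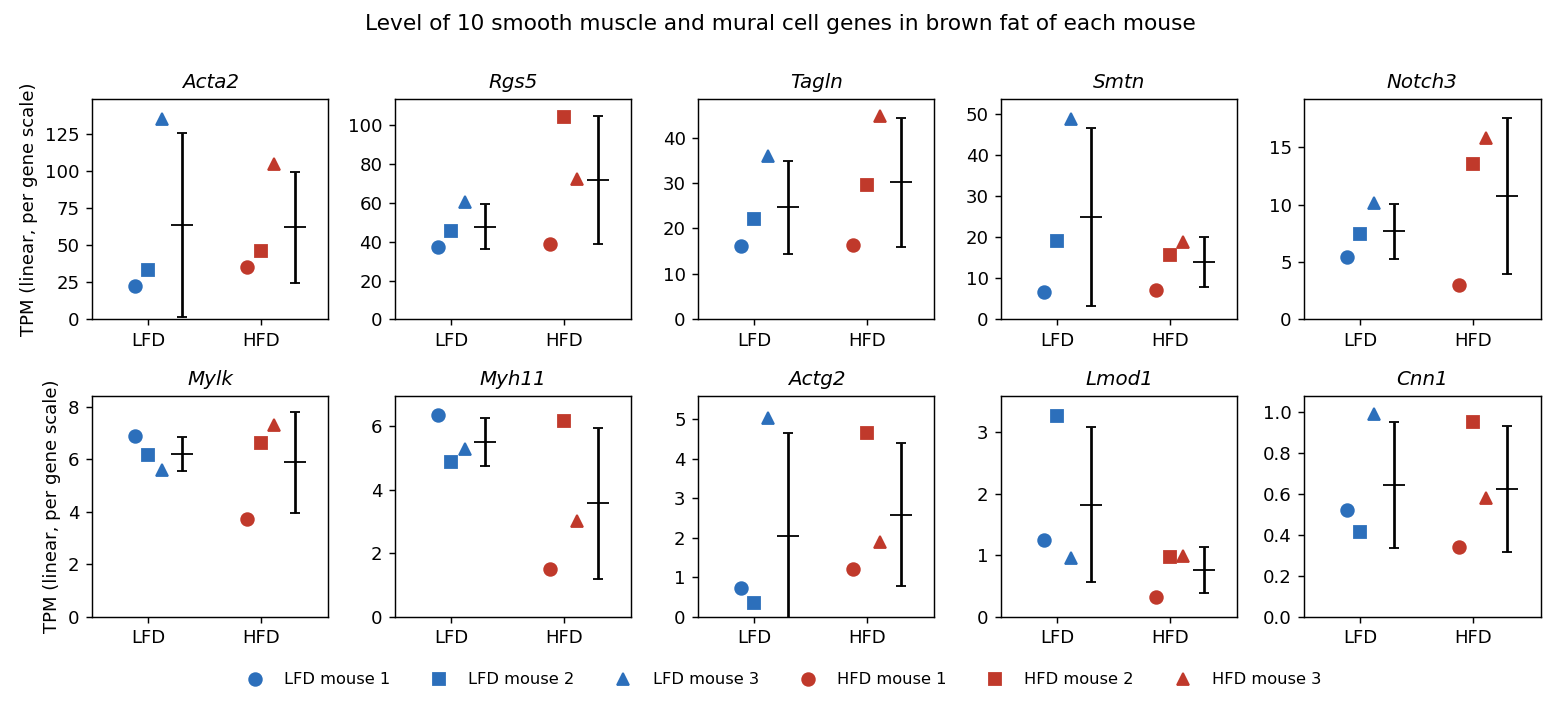
Level of each of the 10 genes in TPM (linear axes from 0, a separate scale for each gene) in the 3 LFD mice (blue) and 3 HFD mice (red); symbols give the mouse number, and the black mark and bar give the mean and SD of a diet, the bar of Actg2 in LFD running below the axis. The diets overlap for all 10 genes on this scale, and LFD mouse 3 is highest for Acta2 at 135.1 TPM and for Smtn at 48.9 TPM.

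Across the set, a gene was called when its adjusted p was under 0.01 and its log2 fold change was beyond 1.5 in either direction. None of the 10 was called, and neither was any of the 17668 genes tested (0%). At an unadjusted p under 0.05, 1 of the 10 was higher in HFD, against 3.86% of all genes tested, and 0 were lower, against 6.62%. Every HFD mouse was above every LFD mouse for 1 of the 10 (6.72% of all genes tested) and below for 0 (9.23%). The fitted differences were positive for 7 genes and negative for 3, with a median of 0.23 beside a median of -0.05 over all tested genes. DESeq2 with its own size factors and filter called 411 genes, and 0 of the 10. It gave an unadjusted p to 29805 genes, before its own filter on low counts. The number that passed that filter was not counted. With so small a share called among all genes, 0 of 10 says little about the set. On TPM, which is not corrected for differences in RNA composition, the median of all genes was -0.18 on the log2(TPM + 1) scale, and the median of the 10 was 0.11.

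LFD mouse 3 stood highest for Acta2, Actg2, Smtn and Cnn1 by TPM and had the smallest mitochondrial share. The median of the 10 was 0.47 without it and -0.07 without LFD mouse 2. Without LFD mouse 3, Acta2 and Actg2 were higher and Lmod1 lower at an unadjusted p under 0.05, against 7.7% of genes higher and 9.55% lower among all those then tested. Of the 10, 4 then lay above in every HFD mouse (16.8% of all) and 1 below (18.1%). None of the 10 was called. Collagens were also far higher in this mouse than in the other LFD mice (Col1a1 at 5842 TPM against 182 and 1166 TPM), and the part of these other differences in the smooth muscle values was not tested.

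**Figure D2:**
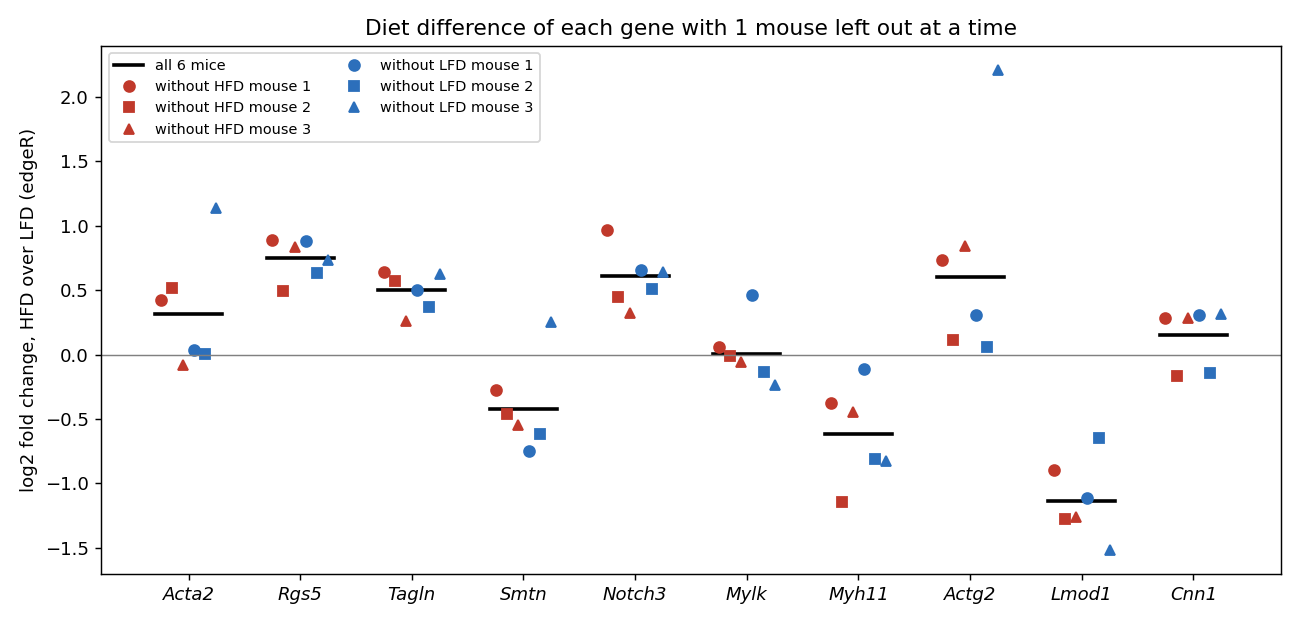
Log2 fold change of HFD over LFD (edgeR) for each gene with all 6 mice (black line) and with 1 mouse left out (red symbols for an HFD mouse left out, blue for an LFD mouse, shape for its number). Rgs5, Tagln, Notch3 and Actg2 are above 0 and Lmod1 and Myh11 below 0 in all 7 fits. Actg2 runs from 0.06 to 2.21 with a mouse left out, Acta2 from -0.08 to 1.14 and Smtn from -0.75 to 0.26.

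Ordered by mean TPM over the 6 mice, the levels ran Acta2 (62.8 ± 45.8, SD over 6 mice), Rgs5 (59.9 ± 25.7), Tagln (27.4 ± 11.5), Smtn (19.5 ± 15.5), Notch3 (9.22 ± 4.87), Mylk (6.05 ± 1.29), Myh11 (4.53 ± 1.91), Actg2 (2.31 ± 2.04), Lmod1 (1.29 ± 1.02) and Cnn1 (0.632 ± 0.275). The ranges of every pair of neighbours overlapped. Within a mouse, the order was kept in all 6 for Rgs5 over Tagln, Smtn over Notch3, Mylk over Myh11 and Myh11 over Actg2. Acta2 exceeded Rgs5 in only 2 of the 6 mice, both numbered 3, so these neighbours at the head of the order did not differ beyond their spread. The genes did not vary as a block: over the 45 pairs, Pearson r of log2 CPM across the 6 mice had a median of 0.25 and ran from -0.84 (Actg2 with Lmod1) to 0.82 (Actg2 with Cnn1). Acta2 went with Tagln (r = 0.78) and Smtn (0.70) but against Lmod1 (-0.73) and Myh11 (-0.56). These coefficients describe 6 points that share library depth and tissue composition, and 15 of the 45 were below 0.

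Among 10273 other genes with a mean log2 CPM above 3, the one most like the mean of the 10 over the 6 mice was Myl9 (r = 0.98), the regulatory light chain of smooth muscle and non-muscle myosin. Birc6 (0.97), Snrpa1 (0.94), Gm13135 (0.91), Mcf2l (0.91), Phykpl (0.91), As3mt (0.90) and Mlst8 (0.89) followed, and only 2 genes were above 0.95. These are the highest of 10273 coefficients over 6 mice. How many as high would arise from unrelated genes was not tested, so no conclusion is drawn from the order. Myl9 itself stood at 18.3, 54.2 and 49.2 TPM in HFD and at 33.9, 36.4 and 63.2 TPM in LFD, with a log2 fold change of 0.13 (SE 0.31, adjusted p = 0.941, edgeR).

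The relatives of these genes in striated muscle gave the contrast to them. These are Acta1 and Actc1 (skeletal and cardiac actin), Myh1, Myh2, Myh4 and Myh7 (fast and slow myosin heavy chains), Mylk2 and Mylk4 (kinases), Lmod2 and Lmod3 (leiomodins) and Smtnl1. All 11 lay below every LFD mouse in every HFD mouse, as 9.23% of all genes tested did in log2 CPM. Their log2 fold changes ran from -8.07 (Myh7) to -4.95 (Myh2), with a median of -5.95. None of the 11 was called by edgeR, however (adjusted p from 0.170 to 0.348). DESeq2 with the same thresholds called 9 of the 11 lower, all but Myh7 and Actc1, and 0 of the 10 smooth muscle and mural genes. Acta1 stood at 8.30, 37.9 and 0.68 TPM in HFD and at 872, 2336 and 486 TPM in LFD. Lmod2 stood at 0.02, 0.36 and 0.00 TPM in HFD and at 4.50, 32.0 and 7.53 TPM in LFD. Of these 11 and the 10 smooth muscle and mural genes, only Rgs5 among the latter did not overlap between the diets.

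**Figure D3:**
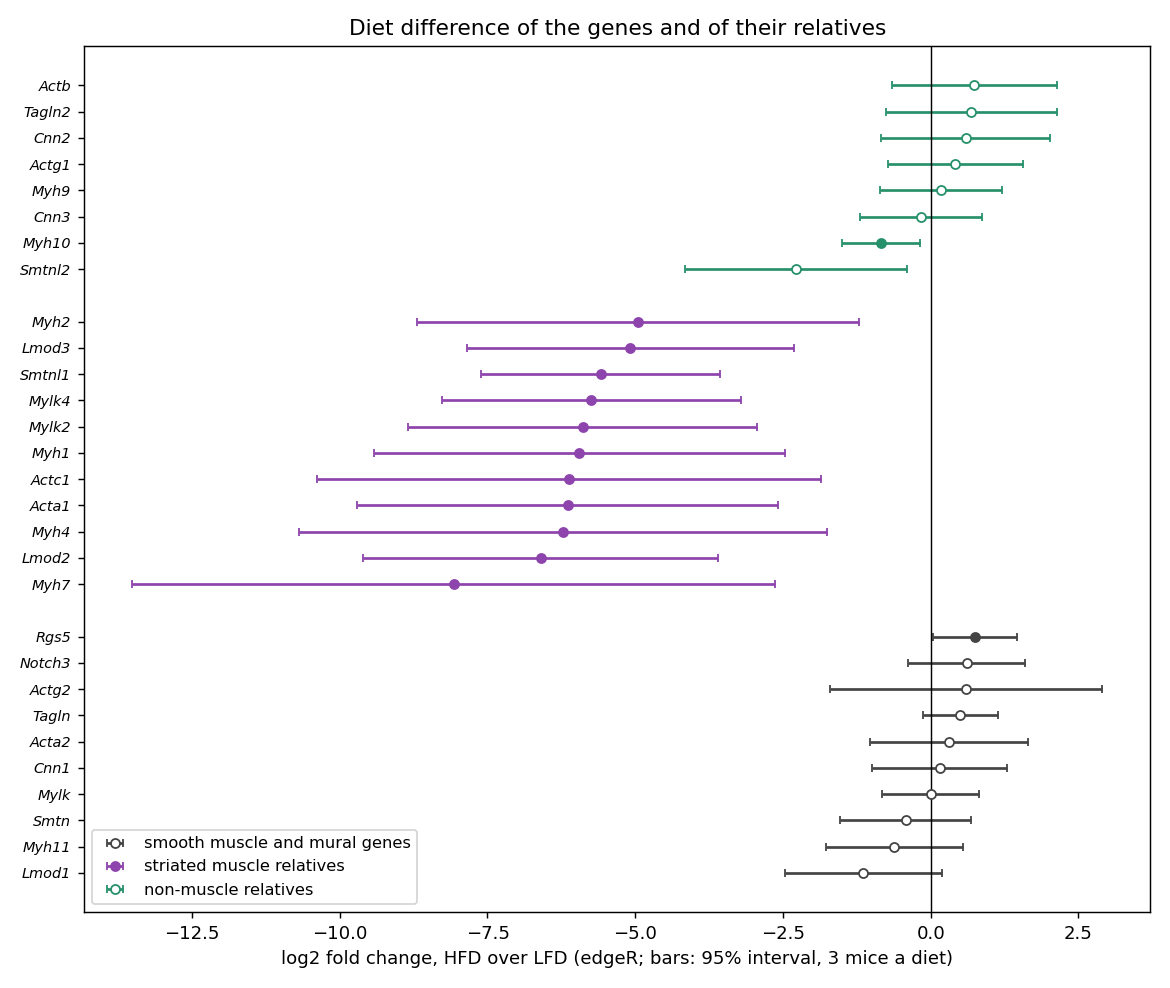
Log2 fold change of HFD over LFD (edgeR, with its 95% interval, 3 mice a diet) for the 10 genes, 11 relatives in striated muscle and 8 relatives in non-muscle cells; filled points are genes for which no HFD mouse overlapped an LFD mouse in log2 CPM. All 11 striated relatives lie between -8.07 and -4.95, whereas the 10 genes lie between -1.14 and 0.75.

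Within a mouse, each smooth muscle gene was set against a striated relative as a difference in log2 CPM, added after the levels had been seen. Acta2 over Acta1 was 2.41, 0.61 and 7.40 in HFD and -4.95, -5.80 and -1.52 in LFD, a difference between the diet means of 7.56. Myh11 over Myh4 differed by 6.53, Mylk over Mylk2 by 5.82, Smtn over Smtnl1 by 4.53 and Lmod1 over Lmod3 by 3.54 on the same scale. All 5 ratios were higher in every HFD mouse than in any LFD mouse. Because the striated genes had been seen to separate the diets, the ratios restate their levels beside those of the smooth muscle genes. An exact two-sided permutation test over the mice gave p = 0.1 for each ratio. That is the smallest p possible with 3 mice a diet, so the test could not decide and no conclusion is drawn from it.

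The same contrast appears as shares of a family. Of the summed TPM of the 4 muscle actins, Acta2 made up 78.8%, 51.9% and 97.5% in HFD and 2.51%, 1.39% and 21.5% in LFD. Mylk made up 89.6%, 88.5% and 98.1% of the 3 myosin light chain kinases in HFD and 22.3%, 6.50% and 44.4% in LFD. Neither pair of groups overlapped. Lmod1 was 51.6%, 62.2% and 97.0% of the leiomodins in HFD and 15.1%, 5.86% and 8.27% in LFD, again without overlap. Smtn was 65.8%, 81.0% and 93.4% of the smoothelins in HFD and 30.0%, 28.4% and 84.8% in LFD, and here LFD mouse 3 lay among the HFD mice.

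**Figure D4:**
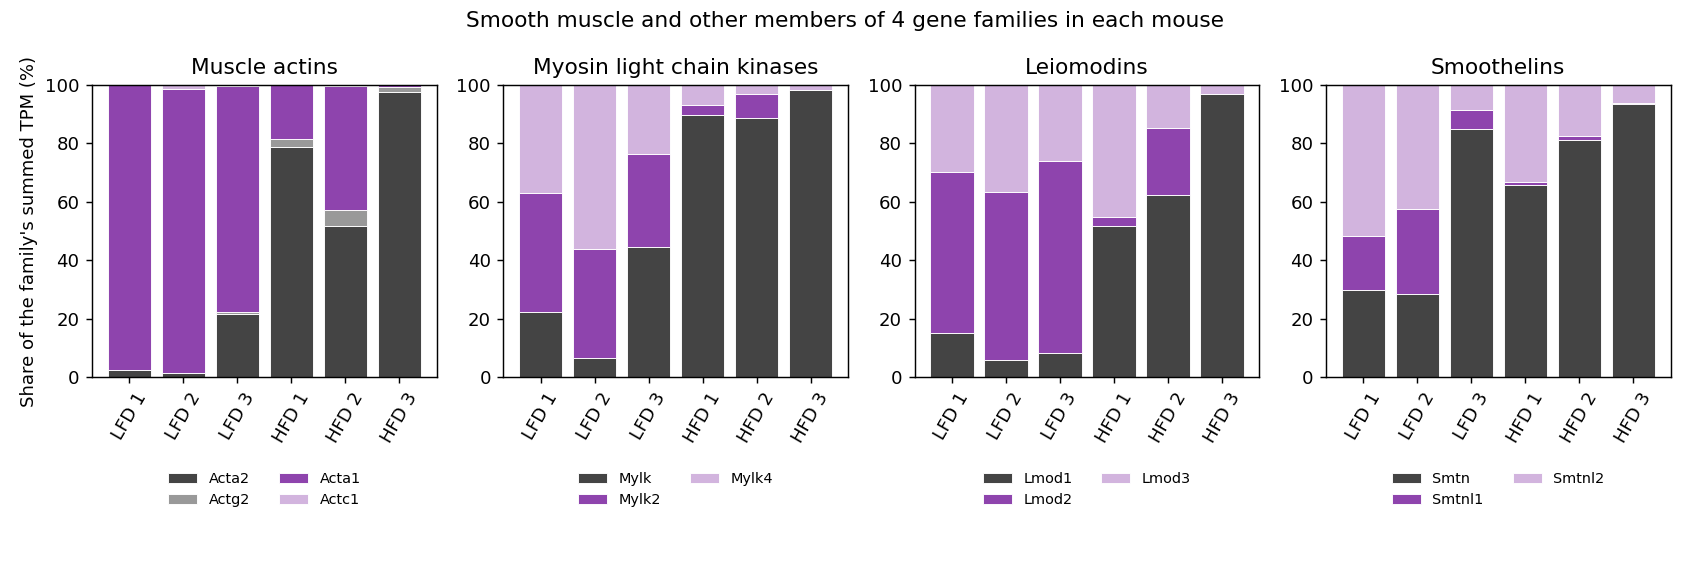
Share of each gene in the summed TPM of its family (percent, bars stacked to 100) in each LFD and HFD mouse for 4 families, with the smooth muscle form in black. Acta2 takes 51.9% to 97.5% of the muscle actins in HFD and 1.39% to 21.5% in LFD, and Mylk and Lmod1 separate the diets in the same direction.

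Against the forms used by all cells, the smooth muscle genes were minor and their shares overlapped between the diets. Acta2 was 1.14% ± 0.22 of the 6 actins in HFD and 1.03% ± 0.52 in LFD (SD, n = 3 each), while beta-actin (Actb) was 81.3% ± 1.04 and 56.2% ± 15.1. The 6 actins include the skeletal form Acta1, at 0.343% ± 0.379 in HFD and 27.5% ± 19.6 in LFD, so these shares are not set against the forms of all cells alone. Tagln was 11.4% ± 1.28 of the transgelins in HFD and 15.5% ± 8.21 in LFD, the rest being Tagln2. Myh11 was 2.32% ± 1.36 of the smooth and non-muscle myosin heavy chains in HFD and 4.25% ± 3.00 in LFD. Cnn1 was 0.710% ± 0.315 of the calponins in HFD and 0.914% ± 0.681 in LFD. Notch3 was 16.8% ± 5.9 of the 4 Notch receptors in HFD and 11% ± 2.42 in LFD. Of 8 non-muscle relatives, Myh10, a non-muscle myosin heavy chain, was below every LFD mouse in every HFD mouse (log2 fold change -0.84, adjusted p = 0.362, edgeR) and Smtnl2 had an estimate of -2.28 (adjusted p = 0.390, edgeR). The other six ran from -0.16 (Cnn3) to 0.74 (Actb) and overlapped between the diets.

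Other parts of the contractile apparatus were read from a list of 18 genes, of which 17 were tested. None was called by edgeR, 5 were lower in HFD at an unadjusted p under 0.05 and 0 were higher, and the median was -0.65. Among all genes tested, 6.62% were lower and 3.86% higher at that p. The 5 were Tpm2 (log2 fold change -3.30, adjusted p = 0.170, edgeR) and Tpm1 (-1.77, adjusted p = 0.177), which are tropomyosins, Des (-3.37, adjusted p = 0.173), the intermediate filament desmin, Kcnma1 (-3.35, adjusted p = 0.295), a potassium channel, and Ppp1r12b (-1.03, adjusted p = 0.265), a myosin phosphatase subunit. DESeq2 called the first 4 of these lower and no other gene of the list. In log2 CPM all 5 lay below every LFD mouse in every HFD mouse (9.23% of all genes tested did), and by TPM all but Ppp1r12b did. Des stood at 13.4, 30.5 and 17.5 TPM in HFD and at 121, 389 and 85.8 TPM in LFD, and Tpm2 at 25.9, 69.5 and 64.3 TPM in HFD and at 479, 1344 and 399 TPM in LFD. Kcnma1 stood at 0.21, 0.31 and 0.05 TPM in HFD and at 1.36, 5.29 and 0.79 TPM in LFD. Des, Tpm1 and Tpm2 are also expressed in skeletal muscle, whose markers were higher in every LFD mouse in 13 of 14 cases. The part of that tissue in the values of all 5 genes, Kcnma1 and Ppp1r12b included, was not tested. Myl6, Myl9, Tpm4, Cald1 and Cacna1c overlapped between the diets.

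Pericyte genes did not move one way. Of 17 such genes beyond the 10, all were tested and 0 were called by edgeR or DESeq2. At an unadjusted p under 0.05 (edgeR), 3 were higher in HFD (3.86% of all genes tested) and 0 lower (6.62%). The median of the 17 was -0.09. That median was 0.34 without LFD mouse 3, 0.12 without HFD mouse 1 and 0.05 without LFD mouse 2. The 3 were Rgs4 (log2 fold change 1.11, adjusted p = 0.275, edgeR), another regulator of G protein signalling, Cox4i2 (1.64, adjusted p = 0.287), a subunit of cytochrome c oxidase, and Higd1b (1.5, adjusted p = 0.382). In log2 CPM each lay above every LFD mouse in every HFD mouse, as Rgs5 and 6.72% of all genes tested did. By TPM all 3 overlapped between the diets. Cox4i2 stood at 1.94, 7.08 and 5.07 TPM in HFD and at 1.12, 1.31 and 2.69 TPM in LFD, and Higd1b at 3.30, 10.3 and 9.57 TPM in HFD and at 2.61, 1.72 and 4.31 TPM in LFD. The receptors and channels that define pericytes overlapped between the diets. Pdgfrb, the receptor for platelet-derived growth factor B, had a log2 fold change of 0.36 (SE 0.32, adjusted p = 0.792, edgeR), and Cspg4, the NG2 proteoglycan, of -0.81 (SE 0.46, adjusted p = 0.615, edgeR). Kcnj8 and Abcc9, the subunits of the mural potassium channel opened by low ATP, gave 0.74 (SE 0.36) and -0.31 (SE 0.31), neither of them called. Vtn was the lowest of the list at -1.20 (adjusted p = 0.553, edgeR).

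The regulators of these genes were measured as well. Srf stood at 4.52, 7.34 and 10.1 TPM in HFD and at 5.68, 7.94 and 11.4 TPM in LFD, with a log2 fold change of 0.03 (SE 0.22, adjusted p = 0.982, edgeR). Myocd, which encodes myocardin, was at 0.11 to 0.26 TPM in all 6 mice and did not pass the filter. Of the 9 SRF and myocardin regulators that were tested, Gata6 (log2 fold change -1.23, SE 0.27, adjusted p = 0.185, edgeR) and Klf4 (-1.01, SE 0.34, adjusted p = 0.382) were lower in HFD at an unadjusted p under 0.05, and in log2 CPM every HFD mouse was below every LFD mouse for both. By TPM this held for Gata6, while Klf4 overlapped. Gata6 is a transcription factor of vascular smooth muscle, and Klf4 is known to repress its contractile genes. None of the 9 was called by edgeR or DESeq2, 0 were higher and the median was -0.12. Among all genes tested, 6.62% were lower and 3.86% higher at that unadjusted p. In log2 CPM, 9.23% of them lay below every LFD mouse in every HFD mouse.

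In the Notch pathway, Jag1, a ligand of Notch3 on neighbouring cells, stood at 10.2, 18.1 and 16.0 TPM in HFD and at 19.1, 23.8 and 38.2 TPM in LFD. Its log2 fold change was -0.61 (SE 0.21, adjusted p = 0.390, edgeR), and it was the only one of the 15 pathway genes at an unadjusted p under 0.05. Among all genes tested, 6.62% were lower at that p. Hey1, a target gene of the pathway, had a log2 fold change of 0.79 (adjusted p = 0.509, edgeR) and overlapped between the diets by TPM, and Lfng (0.65) and Dll4 (0.76) overlapped. The other receptors gave -0.03 (Notch1), -0.31 (Notch2) and 0.38 (Notch4), and the median of the 15 was 0.34, with 0 called by either tool. The median was 0.09 without HFD mouse 3 and, on the log2(TPM + 1) scale, where the median of all genes was -0.18, 0.01.

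In the RGS family, 3 of 11 tested genes beyond Rgs5 were higher at an unadjusted p under 0.05, 0 were lower and 0 were called by edgeR, beside 3.86% higher and 6.62% lower among all genes tested. The median of the family was 0.74, and it was 0.41 without HFD mouse 3 and 0.43 on the log2(TPM + 1) scale. Beside Rgs4 these were Rgs2 (0.90, SE 0.33, adjusted p = 0.413, edgeR) and Rgs1 (4.61, SE 0.75, adjusted p = 0.170), which is known from leukocytes rather than mural cells. Rgs1 was called higher by DESeq2.

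**Figure D5:**
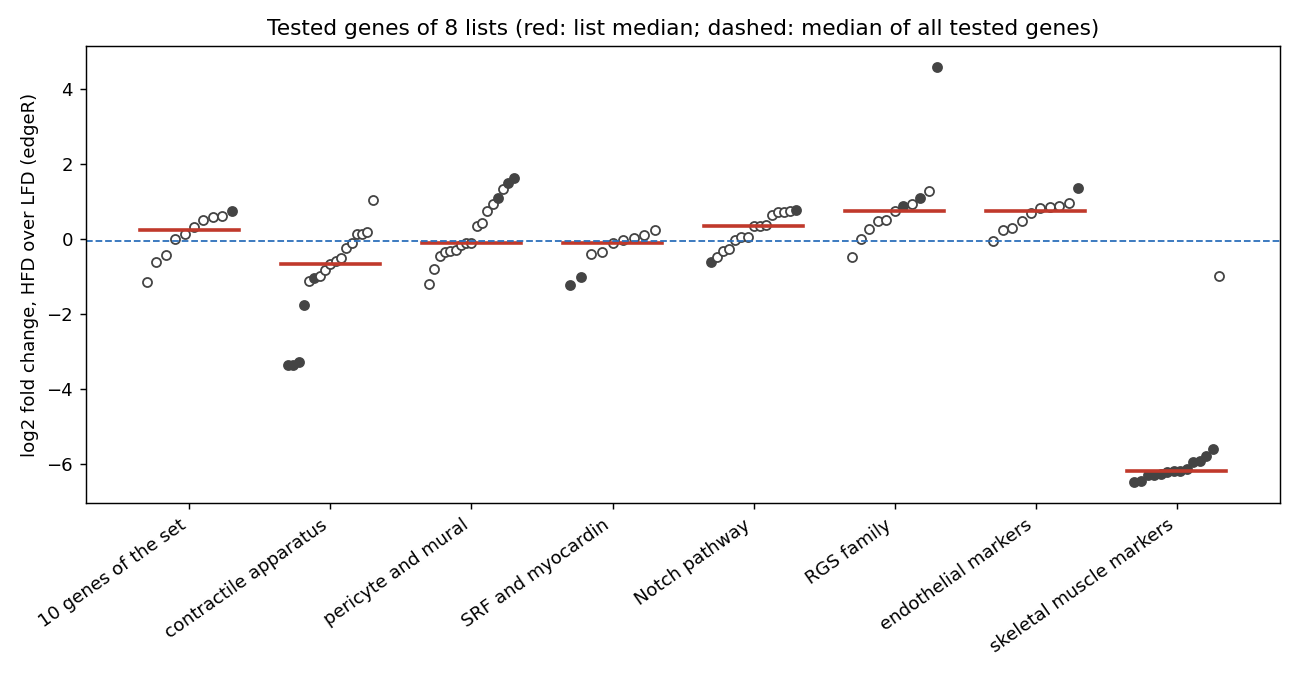
Log2 fold change of HFD over LFD (edgeR) for each tested gene of 8 lists, sorted within a list; filled points are genes for which no HFD mouse overlapped an LFD mouse in log2 CPM, the red lines are list medians and the dashed line is the median of all tested genes (-0.05). The 10 genes have a median of 0.23, and the skeletal muscle markers, apart from Mb, lie near their median of -6.20.

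Markers of the other cells of the vessel and the tissue were set beside these values. Among all genes tested, 3.86% were higher and 6.62% lower in HFD at an unadjusted p under 0.05 (edgeR). Of 10 endothelial markers, Cldn5 (log2 fold change 1.37, adjusted p = 0.249, edgeR) and Emcn (0.88, adjusted p = 0.413) were higher in HFD at an unadjusted p under 0.05 and 9 of the 10 estimates were positive, with a median of 0.76. Their summed level was 140 to 561 TPM in HFD and 175 to 360 TPM in LFD, so the diets overlapped, and HFD mouse 1, the lowest for 5 of the 10 smooth muscle and mural genes by TPM, was the lowest here too. Of 9 fibroblast and progenitor markers, 2 were lower (Dcn and Pdgfra) and 0 higher, with a median of -1.17 and a summed level of 3560 to 5379 TPM in HFD and 1986 to 27690 TPM in LFD. Of 7 macrophage markers, 3 were higher (Fcgr1, Cd68 and Adgre1) and 0 lower, with a summed level of 1430 to 3144 TPM in HFD and 362 to 3400 TPM in LFD. Of 10 brown adipocyte markers, 2 were higher (Prdm16 and Dio2) and 0 lower, and the median was 1.68. Their summed level was 5555 to 11912 TPM in HFD and 3437 to 11966 TPM in LFD, which overlapped. Of 6 Schwann cell markers, S100b was higher and Pmp22 lower. No gene of these 5 lists was called by edgeR or by DESeq2, and the part of these cells in the values of the 10 genes was not tested. The summed level of the 10 genes was 108, 229 and 270 TPM in HFD and 104, 143 and 308 TPM in LFD, which overlapped.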

How the data were processed

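Per the labels and the study's methods, the authors trimmed 75-base single-end reads of ribosome-depleted RNA with Trimmomatic 0.36 and quantified them with RSEM 1.3.0 on GRCm38 with Ensembl annotation, 1 table per mouse. The deposited expected counts per gene were rounded to whole numbers, the deposited TPM were used for levels and shares, and the authors' effective length and posterior SD of the count were read as given. The authors used DESeq2 1.10.1.

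The members and lists were chosen with earlier results of these data known. Counts were fitted for all genes with edgeR 4.0.16 (R 4.3.3; TMM, filterByExpr, quasi-likelihood test, Benjamini-Hochberg), and log2 CPM used a prior count of 2. Alternatives used DESeq2 1.42.0 and limma 3.58.1. The fitting functions for edgeR, DESeq2 and limma were tested on simulated counts, and the other steps were not. Named beside the 10 genes were, for each list, up to 4 genes with the smallest p, the family relatives, 8 genes fixed by name and the 8 most like the mean of the set. Other genes of a list were named after their values were seen. Within-mouse ratios to striated relatives were added after the data were seen. Itgam had no single match and was left out of its list. A further list of genes is not reported here.

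Labels number the mice 1 to 3 in each diet. Deviations from the diet means correlated between same-numbered mice at 0.50, 0.23 and 0.52, all above 0.1. That the numbers pair the mice is a hint from the data and not the design. The fits quoted are therefore unpaired unless pairing is named, and pairing by number (the replicate block) was run as an alternative. Nothing ties the mice to separate litters or days, so the p-values measure the spread between these 6 mice. Within a diet, no library repeated another. Genes on the opposite strand overlap Tagln, Mylk, Smtn, Notch3 and Lmod1, and the strand setting of the counting is not given in the sources used here.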

Additional observations from a re-analysis of the deposited data

How the results depend on the processing

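None of the 10 genes was called in any alternative. With all mice kept, the log2 fold change of Mylk, which was at 0, turned negative with DESeq2 (-0.0047), with no filter on low counts (-0.0019), without mitochondrial and rRNA genes (-0.0185), without skeletal muscle genes (-0.0003) and on log2(TPM + 1) and log2(TPM + 0.1) (-0.10 and -0.13), and that of Cnn1 on both TPM scales (-0.0156 and -0.0446). Left out 1 at a time, the mice gave signs opposite to the full fit for Mylk (-0.2376 to 0.46), Cnn1 (-0.17 to 0.31), Acta2 (-0.0822 to 1.14) and Smtn (-0.75 to 0.26). The median of the 10 ran from -0.0675 (without LFD mouse 2) to 0.47 (without LFD mouse 3). Genes past the threshold among all tested were 411 with DESeq2 (305 lower, 106 higher), 1 with limma on log2(TPM + 1) and 0 in the other fits. Members higher at an unadjusted p under 0.05 were 0 with library totals only, with limma on log2(TPM + 1) and with the replicate block, which changed no other call; left out 1 at a time, the mice gave 0 to 2 higher and 0 to 1 lower. Members not overlapping were 2 with DESeq2 and with RLE factors (Rgs5 and Tagln), 0 with library totals only and on TPM, and 1 to 5 with a mouse left out. The share among all tested genes also rose with fewer mice. Without LFD mouse 3, which gave the 5, it was 16.8% above and 18.1% below, against 6.72% and 9.23% with all mice. At an unadjusted p under 0.05, 7.7% of genes were then higher and 9.55% lower, against 3.86% and 6.62%. As a share of summed counts rather than TPM, Acta2 was 1.61% of the actins in HFD. Actg2 could not be tested where 10 counts were required in every mouse. Actg2 had the fewest counts in a mouse, 3.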
